A study of Arabidopsis thaliana with 12 samples.

Results

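The miRNAs carried by AGO1, other than those of miR165 and miR166, were compared between the ktn1 mutant and wild type (WT) in 2 cell layers of the Arabidopsis thaliana root, to describe which of them changed alike in both layers and which changed differently. The unit was the entry, a mature miRNA sequence with all the names that share it. An entry was followed when it reached at least 10 RPM (reads per 1000000 reads) in at least 2 of the 8 root libraries. Of the 240 entries of the series, 235 lay outside miR165 and miR166, and 192 of these were listed in the root files. The filter kept 81 entries from 55 families and left 111 below it. Of the 81, 50 reached 10 RPM in all 8 libraries, and 1, miR780.1, passed through the ACL5 ktn1 libraries only. miR3932b-5p reached 10 RPM in ktn1 libraries only, and miR3434-5p and miR393b-3p in WT libraries only. miR5024-3p reached it only in ACL5 ktn1 replicate 1 and EN7 WT replicate 1.

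Small RNA was recovered by immunoprecipitation of GFP-tagged AGO1 from roots of 9-day-old Col-0 plants. Every root group carried a GFP-AGO1 transgene, driven by the ACL5 promoter (metaxylem and procambium) or by the EN7 promoter (endodermis), as the series describes them. The 4 groups were ACL5 WT, ACL5 ktn1, EN7 WT and EN7 ktn1, with 2 libraries each, and ktn1 stands for the ktn1-20 allele. The labels do not say how many independent transgenic lines were used, nor whether the replicates came from separate plants, so p-values measure the spread between these libraries, which may be technical.

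miRNAs are short RNAs that are cut from hairpin precursors as a duplex, of which a guide strand is loaded into ARGONAUTE1 (AGO1) while its partner strand is usually discarded. AGO1 then cleaves or represses complementary mRNAs, and some plant miRNAs also move between neighbouring cells. KTN1 encodes the catalytic subunit of katanin, which severs microtubules.

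The RPM denominators of the root libraries were 5804745 to 13004041 reads, and 1454284 to 7733775 reads were assigned to miRNAs. A count of 3 reads, taken as the smallest that can be told from 0, was 0.231 to 0.517 RPM. The share of all miRNA RPM held by miR165 and miR166 differed between the groups, at 15.9% and 17.6% in WT against 4.46% and 4.69% in ktn1 for ACL5, and 40.4% and 32.7% in WT against 57.9% and 64.8% in ktn1 for EN7. RPM is a share, so the scale of all other miRNAs moves with that family. In libraries made from whole roots, fewer cells of a layer and less AGO1-bound RNA per cell cannot be told apart. A table of mature miRNAs holds no marker transcripts, so neither the layers nor the genotype could be checked against one.

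Replicates of a group were not equally close. Across the 81 entries, replicates differed by a median absolute log2 value of 0.41 in WT and 0.88 in ktn1 for ACL5, and of 0.99 in WT and 0.64 in ktn1 for EN7. EN7 WT replicates 1 and 2 lay apart, as did ACL5 ktn1 replicates 1 and 2. EN7 WT replicate 1 and ACL5 ktn1 replicate 2 are the pair of libraries left out together below, and values without them are given for results that move. They belong to the groups with the widest replicate differences. In the libraries kept, partner strands held 1.08% to 1.83% of guide plus partner RPM in ACL5 and 0.477% to 0.576% in EN7. In values without the pair, layer and partner share thus cannot be told apart. Fits without the pair take their spread from the closer groups alone, so a low p in such a fit can follow from that choice.

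For no miRNA outside miR165 and miR166 did the difference in ktn1 change between the layers pass the test after adjustment. The averaged change passed for the entries miR3932b-5p, miR398b-3p/miR398c-3p, miR408-3p, miR163, miR5650 and miR8182. With entries summed over families, it passed for miR3932 and miR398 only. miR3932b-5p, the only entry of its family, reached 10 RPM in ktn1 libraries only, so its tests are no support by themselves. The interaction is the ktn1 change in ACL5 minus the ktn1 change in EN7, on the log2(RPM + 1) scale. In limma it had an adjusted p under 0.05 for 0 of the 81 entries, against 2.33% of the 86 entries tested, which include 5 of miR165 and miR166. At an unadjusted p under 0.05 there were 3, all with a positive interaction (miR162a-3p/miR162b-3p, miR780.1 and miR5024-3p), against 8.14% of all tested. Of these, miR780.1 entered the test only through ACL5 ktn1, where it is high, so its p is no support for a difference. Over families, where all entries of a miRNA number were summed, the count was 0 of 55 (1.79% of all families tested). An unadjusted p under 0.05 was reached by 2 families, miR162 and miR5024. The miR5024 family is the entry miR5024-3p alone, so the same limit holds for it. The interaction of the 81 entries had a median of 0.43 and ran from -4.30 (miR827) to 3.31 (miR396a-3p). It was above 0 for 56 entries and below 0 for 25.

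These data could not show that a miRNA responded to the same degree in both layers, because the intervals were wide. The interaction's standard error had a median of 1.01, with a range of 0.44 to 2.83. The 95% interval of 0 of 81 entries lay within 1 log2 unit of 0 on both sides, although 58 of the estimates did. For 8 entries the interval lay within 2 log2 units, and for 33 within 3. The 8 were miR159a, miR158a-3p, miR159b-3p, miR396b-5p, miR163, miR156b-3p, miR781a/miR781b and miR447a.2-3p.

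The layers were also compared by overlap, which needs no model. In ACL5 and EN7 together, 6 entries had both ktn1 libraries above both WT libraries in both layers (6.98% of all 86 tested), and 9 had them below in both (14%). For 5 entries the direction was opposite (8.14%), and in all 5 ktn1 was higher in ACL5 and lower in EN7. Genotypes were separate in ACL5 alone for 16 entries, 10 of them higher in ktn1 (11.6%) and 6 lower (6.98%). They were separate in EN7 alone for 15 entries, 2 of them higher (2.33%) and 13 lower (15.1%). The remaining 30 overlapped in both layers (34.9%). None of the 31 entries separated in a single layer had an interaction with an unadjusted p under 0.05, so separation in a single layer does not show that the layers differed.

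**Figure D1:**
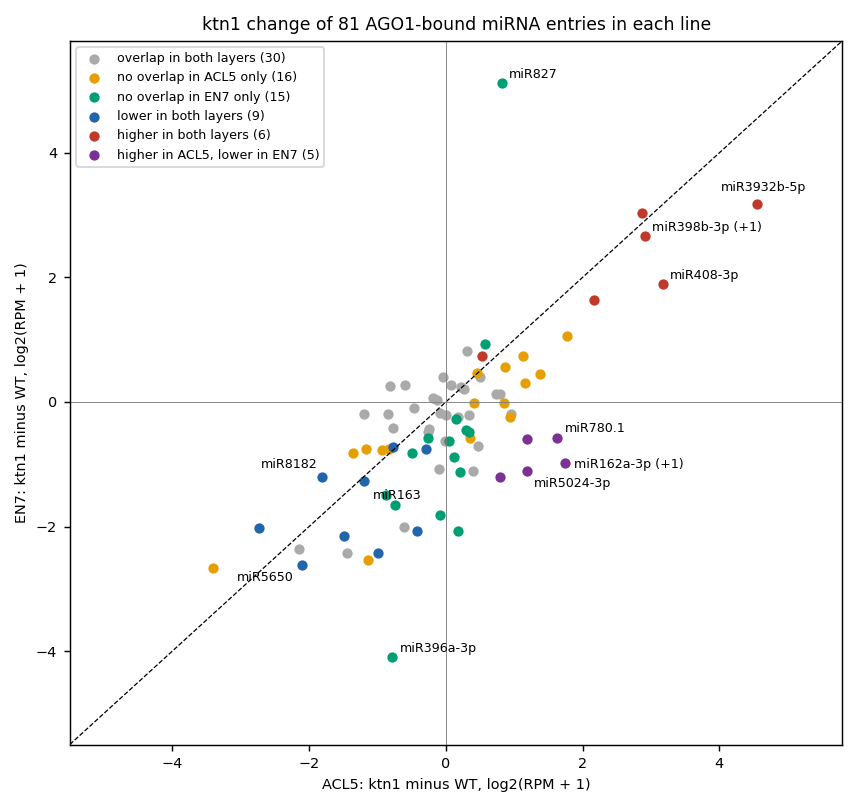
Each point is 1 of the 81 AGO1-bound entries outside miR165 and miR166, with the ktn1 minus WT difference of mean log2(RPM + 1) in ACL5 on the x axis and in EN7 on the y axis; colours give the overlap of ktn1 and WT libraries in each layer, and the dashed line marks equal changes. miR3932b-5p, at 4.56 and 3.18, lies farthest along the line on the side of higher values, while miR827, at 0.82 and 5.12, and the 5 entries with ktn1 above WT in ACL5 and below it in EN7 lie off it.

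The 6 entries that were higher in ktn1 in both layers were miR3932b-5p, the guide strands of the copper-responsive miR398 and miR408, miR5996 and miR158a-3p. The change averaged over the layers passed the limma test (adjusted p under 0.05) for 3 entries that rose and 3 that fell, 6 of 81 in all, against 10.5% of all tested (3.49% higher and 6.98% lower). The number of entries at an unadjusted p under 0.05 was 14, against 19.8%. This split depended on the scale. With libraries rescaled to equal summed miRNA RPM it was 1 higher and 5 lower, with equal sums outside miR165 and miR166 it was 3 and 4, and with libraries centred on the median miRNA it was 4 and 0. Over families, the average passed for miR3932 (limma, adjusted p = 0.00131) and miR398 (adjusted p = 0.0436). The miR3932 family is miR3932b-5p alone, which reached 10 RPM in ktn1 libraries only, so its p is no support by itself. The family average did not pass for miR5650 (adjusted p = 0.0505), miR408 (0.0634), miR8182 (0.0634) or miR163 (0.0914).

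miR3932b-5p had the largest averaged change of the 81 and was the only entry outside miR165 and miR166 to pass in each layer by itself, 1 of 81 in ACL5 (4.65% of all tested in either direction, 1.16% higher) and 1 of 81 in EN7 (6.98% in either direction, 3.49% higher). It held 1.44 and 1.72 RPM in WT against 55.2 and 64.5 in ktn1 for ACL5, and 2.29 and 0 in WT against 17.8 and 13.4 in ktn1 for EN7. All 4 ktn1 libraries lay above all 4 WT libraries. The WT values rest on 10 and 10 reads in ACL5 and on 18 and 0 in EN7. Its change was 4.56 in ACL5 (limma, adjusted p = 0.00843) and 3.18 in EN7 (adjusted p = 0.0335), with an average of 3.87 (SE 0.48, adjusted p = 0.00271). It reached 10 RPM in ktn1 libraries only, the genotype where it is high, so these p-values are no support by themselves. Without a filter, its averaged and ACL5 changes still passed and its EN7 change did not. The EN7 change also did not pass with a pseudocount of 0.5 or with equal summed miRNA RPM. Both single-layer calls turned on left-out libraries. The 4 differences between single ACL5 libraries all exceeded those in EN7, yet the interaction was 1.37 (SE 0.96, 95% interval -0.90 to 3.65, adjusted p = 0.97). Its averaged change passed in all 20 alternatives, with values from 2.53 to 4.43.

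miR398 and miR408 are raised when copper is scarce. miR398 guides cleavage of copper/zinc superoxide dismutase mRNAs, and miR408 targets mRNAs of plantacyanin and laccases, which are copper proteins. The shared guide strand miR398b-3p/miR398c-3p (precursor genes AT5G14545 and AT5G14565) held 2313 and 4123 RPM in WT against 21548 and 25094 in ktn1 for ACL5, and 376 and 3316 in WT against 6305 and 7945 in ktn1 for EN7. Genotypes were separate in both layers, although the EN7 WT libraries differed widely from each other. The changes of 2.91 in ACL5 and 2.66 in EN7 gave an average of 2.79 (SE 0.66, limma, adjusted p = 0.0443) and an interaction of 0.25 (SE 1.32, 95% interval -2.87 to 3.37). The average was 2.00 without EN7 WT replicate 1 and 3.57 without EN7 WT replicate 2, and 1.95 without the pair of libraries. The interaction changed sign between them, at 1.82 without EN7 WT replicate 1 and -1.32 without EN7 WT replicate 2, and was 1.71 without the pair.

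miR408-3p (AT2G47015) held 362 and 868 RPM in WT against 6918 and 3710 in ktn1 for ACL5, and 98.2 and 425 in WT against 958 and 606 in ktn1 for EN7. Here too both ktn1 libraries exceeded both WT libraries in each layer. Its averaged change was 2.53 (SE 0.59, limma, adjusted p = 0.0443), from 3.17 in ACL5 and 1.89 in EN7, with an interaction of 1.28 (SE 1.19, 95% interval -1.54 to 4.10). The interaction was 0.23 without EN7 WT replicate 2, 2.33 without EN7 WT replicate 1 and 2.78 (adjusted p = 0.18) without the pair of libraries. The third copper guide, miR398a-3p (AT2G03445), also separated in both layers, with an averaged change of 2.95 (SE 0.88) that did not pass (adjusted p = 0.0945). The partner strand miR408-5p overlapped in both layers, with 99.5, 317, 1215, 97.5, 50.6, 62.4, 58.8 and 40.9 RPM in the same order of libraries. The 4 copper entries thus had median changes of 2.89 in ACL5 and 2.28 in EN7, against 0.08 and -0.45 over the 81, and a median interaction of 0.70.

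miR5996 and miR158a-3p also had both ktn1 libraries above both WT libraries in each layer, but neither average passed. miR5996 changed by 1.90 on average (SE 0.62, limma, adjusted p = 0.113). miR158a-3p, among the most abundant entries, ranged from 32692 to 43838 RPM over the 4 WT libraries and from 41016 to 99414 over the 4 ktn1 libraries. Its average was 0.64 (SE 0.28, adjusted p = 0.271), and its interaction of -0.21 had a 95% interval of -1.56 to 1.13.

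The entries that were lower in ktn1 in both layers included miR163, miR5650 and miR8182, whose averages passed the test. miR163 (AT1G66725), which targets mRNAs of S-adenosylmethionine-dependent methyltransferases, held 5737 and 3831 RPM in WT against 1951 and 2142 in ktn1 for ACL5, and 1912 and 2286 in WT against 1005 and 745 in ktn1 for EN7. The genotypes were separate in each layer, and the ktn1 level of ACL5 was close to the WT level of EN7. The changes were -1.20 in ACL5 and -1.27 in EN7, with an average of -1.23 (SE 0.30, limma, adjusted p = 0.0443). The interaction of 0.08 had an SE of 0.59 and a 95% interval of -1.33 to 1.48, among the narrowest measured. Centring on the median miRNA reduced the average to -0.67 (adjusted p = 0.226).

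miR5650 held 187 and 196 RPM in WT against 30.7 and 62.0 in ktn1 for ACL5, and 280.0 and 119 in WT against 55.3 and 15.1 in ktn1 for EN7. Its average was -2.36 (SE 0.57, limma, adjusted p = 0.0443) and its interaction 0.50 (SE 1.13, 95% interval -2.18 to 3.18). The separation was complete in both layers. miR8182 was at 18.7 and 14.3 RPM in WT against 3.96 and 3.95 in ktn1 for ACL5, and 64.4 and 106 in WT against 41.3 and 30.1 in ktn1 for EN7. Its average was -1.51 (SE 0.37, adjusted p = 0.0443) and its interaction -0.60 (SE 0.73, 95% interval -2.34 to 1.14). Centred on the median miRNA, the average of miR8182 was -0.94 (adjusted p = 0.148).

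The other 6 entries that were lower in both layers did not pass as averages. They included the guide strand of miR156, which represses SPL transcription factors and holds plants in the juvenile phase. The entry of 6 miR156 names from miR156a-5p on held 2872 and 2845 RPM in WT against 2356 and 871 in ktn1 for ACL5, and 1468 and 1093 in WT against 364 and 152 in ktn1 for EN7. Its average was -1.71 (SE 0.47, limma, adjusted p = 0.0745), from -0.996 in ACL5 and -2.42 in EN7, with an interaction of 1.43 (SE 0.94, 95% interval -0.81 to 3.67). The average passed after rescaling to equal summed miRNA RPM (-2.20, adjusted p = 0.0206) or to equal sums outside miR165 and miR166 (-1.94, adjusted p = 0.0319), and without EN7 WT replicate 2 (-1.82, adjusted p = 0.0471). miR164c-5p, which targets NAC transcription factor mRNAs, averaged -1.82 (adjusted p = 0.0945). miR403-5p averaged -1.25 (adjusted p = 0.332), and -0.83 without the pair of libraries. miR3434-5p averaged -2.38 (adjusted p = 0.136). It passed the filter only through ACL5 WT replicate 2 and EN7 WT replicate 1, so its fall and p are shaped by that selection. Its EN7 values rest on 114 and 1 reads in WT against 1 and 0 in ktn1, under the floor of 3 reads in 3 of the 4 libraries, so its separation in EN7 cannot be told from 0. miR156b-3p and miR840-3p completed the group.

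**Figure D2:**
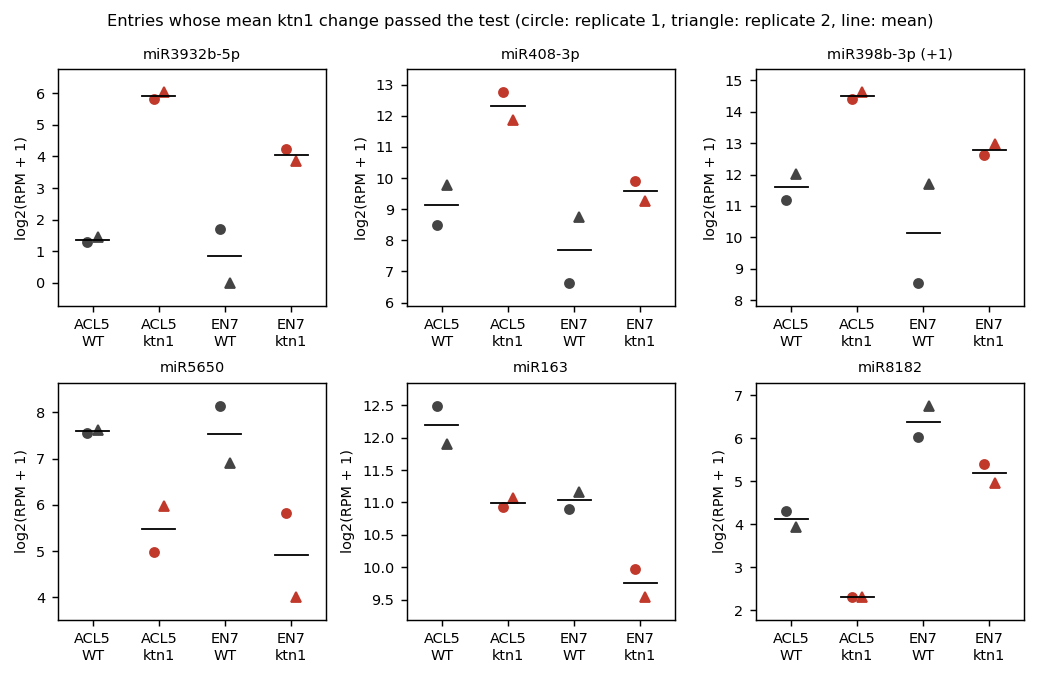
Levels on the log2(RPM + 1) scale (y axis) of the 6 entries whose ktn1 change averaged over both layers passed the limma test, in the 4 groups (x axis); circles are replicate 1, triangles replicate 2 and lines group means, grey for WT and red for ktn1. In every panel the genotypes are separate in both layers and in the same direction, with the spread between EN7 WT replicates widest for miR398b-3p/miR398c-3p, at 376 and 3316 RPM.

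Apart from that of miR3932b-5p, the calls of averaged changes depended on single libraries. Leaving out single libraries gave between 1 and 24 calls in place of 6. Without EN7 WT replicate 2 there were 24, which included all 6, whereas without either ACL5 WT library or either ACL5 ktn1 library only miR3932b-5p remained. There were 2 without EN7 ktn1 replicate 1 and 2 without EN7 ktn1 replicate 2, and 3 without EN7 WT replicate 1. Over the 20 alternatives, miR398b-3p/miR398c-3p passed in 11, miR5650 in 10, miR408-3p in 9, miR163 in 7 and miR8182 in 5. The direction of each of the 6 averages was the same in all 20.

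The 5 entries that were higher in ktn1 in ACL5 and lower in EN7 were led by the guide strand of miR162, which targets the mRNA of DCL1, the enzyme that cuts miRNA precursors. miR162a-3p/miR162b-3p (AT5G08185 and AT5G23065) held 8566 and 8817 RPM in WT against 45918 and 18343 in ktn1 for ACL5, and 17982 and 6558 in WT against 5966 and 5112 in ktn1 for EN7. The ACL5 groups were far apart, whereas EN7 WT replicate 2 lay only slightly above the EN7 ktn1 libraries. The changes were 1.74 in ACL5 and -0.98 in EN7, and the interaction was 2.72 (SE 0.83, 95% interval 0.76 to 4.67, limma, unadjusted p = 0.0137, adjusted p = 0.262). It was 3.44 without EN7 WT replicate 2 and 2.65 without the pair of libraries, in fits that leave a group with 1 library. It did not pass under any of the other pseudocounts, filters, rescalings or replicate blocks, nor without the trend. The miR162 family, dominated by this strand, had an interaction of 2.69 (SE 0.82, adjusted p = 0.261). Its partner strand miR162a-5p/miR162b-5p had an interaction of 0.67 (SE 0.76), with changes of 0.05 in ACL5 and -0.62 in EN7.

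miR167c-3p (AT3G04765) was assigned as the partner strand of a miR167 precursor, and the guide strand of miR167 targets auxin response factors. It held 739 and 665 RPM in WT against 2278 and 1114 in ktn1 for ACL5, and 955 and 552 in WT against 527 and 439.8 in ktn1 for EN7. The genotypes were separate in each layer, by a small margin in EN7. Its interaction was 1.77 (SE 0.79, 95% interval -0.10 to 3.65, limma, adjusted p = 0.574). The assigned guide strand from the same precursor, miR167c-5p, had an interaction of -0.37 (SE 0.91). Its mean over the 8 libraries was 39.7 RPM against 909 for miR167c-3p, so the assigned partner was the more abundant strand here.

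miR845a (AT4G23387), of a family known to act on retrotransposon RNA, held 72.02 and 62.2 RPM in WT against 107 and 129 in ktn1 for ACL5, and 206 and 80.0 in WT against 56.1 and 54.3 in ktn1 for EN7. Its interaction was 2.00 (SE 0.85, 95% interval -0.02 to 4.03, limma, adjusted p = 0.557). Of the EN7 WT libraries, replicate 1 alone lay far above EN7 ktn1. Without the pair of libraries the interaction was 1.19 (adjusted p = 0.567).

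The 2 remaining entries of this kind were near the lower end of the measured range. miR780.1 (AT4G14811) held 5.19 and 7.06 RPM in WT against 18.6 and 23.4 in ktn1 for ACL5, and 1.02 and 0.432 in WT against 0.308 and 0 in ktn1 for EN7. The EN7 values are 8, 3, 4 and 0 reads, so its direction in EN7 rests on a handful of reads. Its interaction was 2.20, given as a description because its level in ACL5 ktn1 alone took it past the filter. miR780.2, from the same precursor, overlapped in both layers, with an interaction of 1.504 (SE 1.06). miR5024-3p held 3.31 and 4.31 RPM in WT against 14.95 and 6.41 in ktn1 for ACL5, and 14.1 and 5.47 in WT against 4.08 and 3.14 in ktn1 for EN7. Its interaction was 2.29 (SE 0.95, 95% interval 0.05 to 4.54, limma, unadjusted p = 0.0463, adjusted p = 0.557). Only ACL5 ktn1 replicate 1 and EN7 WT replicate 1 took it past the filter, and both raise the interaction, so this p is no support.

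The opposite directions depended on the scale and on the libraries. All 5 entries were still opposite after rescaling to equal summed miRNA RPM, where 8 entries were in all. After rescaling to equal sums outside miR165 and miR166, miR5024-3p, miR780.1 and miR845a were still opposite, 3 of the 5. Centred on the median miRNA, 0 of the 5 were, and each was separate in ACL5 alone. Without the pair of libraries, 17 entries were opposite, these 5 included. With 1 library in ACL5 ktn1 and 1 in EN7 WT, separation is easier to reach there.

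**Figure D3:**
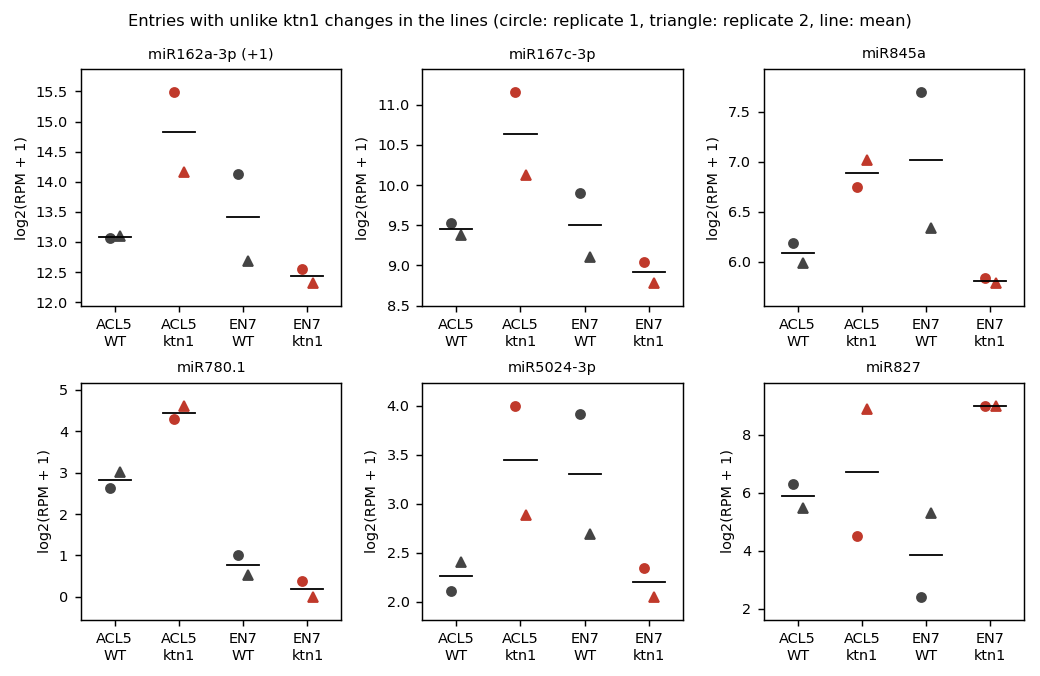
Levels on the log2(RPM + 1) scale (y axis) in the 4 groups (x axis) of the 5 entries that were higher in ktn1 in ACL5 and lower in EN7, and of miR827; circles are replicate 1, triangles replicate 2 and lines group means, grey for WT and red for ktn1. The gap between genotypes is wide in ACL5 and narrow in EN7 for miR162a-3p/miR162b-3p (6558 against 5966 RPM at the nearest), and miR827 spans 21.7 to 475 RPM between the ACL5 ktn1 replicates.

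A stricter comparison asked whether all 4 differences between single ktn1 and WT libraries in one layer exceeded all 4 in the other. The ACL5 differences were all above for 9 of the 81 entries, against 14% of all tested. They were the 5 opposite entries together with miR3932b-5p, miR161.1, miR395a/miR395d/miR395e and miR833a-5p. The EN7 differences were all above for 1 entry, miR827, against 3.49%.

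miR827 (AT3G59884), which targets NLA, a regulator of phosphate transport, had the most negative interaction. It held 77.6 and 43.1 RPM in WT against 21.7 and 475 in ktn1 for ACL5, and 4.33 and 38.8 in WT against 505 and 502 in ktn1 for EN7. In EN7 the genotypes were widely separate, while in ACL5 the WT libraries lay between the ktn1 libraries. The change was 5.12 in EN7 (SE 1.51, limma, adjusted p = 0.129) and 0.82 in ACL5 (SE 1.51, adjusted p = 0.856), and the interaction -4.30 (SE 2.14, 95% interval -9.37 to 0.78, adjusted p = 0.665). The value turned on the ACL5 ktn1 libraries, at -2.10 without replicate 1 and -6.49 without replicate 2. Without the pair of libraries it was -5.04, in a fit that leaves out the ACL5 ktn1 library at 475 RPM and keeps that at 21.7. The other phosphate and sulfate entries had interactions of 0.21 (miR399b and its shared names, SE 1.19), 0.74 (miR395b and its shared names, SE 0.79) and 0.85 (miR395a/miR395d/miR395e, SE 0.75).

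miR161.1 (AT1G48267), which targets mRNAs of pentatricopeptide repeat proteins, was lower in ktn1 in EN7 alone by library overlap. It held 11172 and 9261 RPM in WT against 10973 and 8433 in ktn1 for ACL5, and 30223 and 11389 in WT against 7967 and 3485 in ktn1 for EN7. The ACL5 libraries were interleaved, whereas both EN7 ktn1 libraries lay below both EN7 WT libraries. The change was -1.82 in EN7 (SE 0.57, limma, adjusted p = 0.133; -2.56 and 0.046 with equal summed miRNA RPM, -2.52 and 0.0168 without EN7 WT replicate 2, and -1.11 and 0.42 without EN7 WT replicate 1) and -0.08 in ACL5, and the interaction 1.74 (SE 0.80, 95% interval -0.17 to 3.64, adjusted p = 0.588). The interaction was 1.22 without the pair of libraries.

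The other 12 entries lower in EN7 alone had interactions from 0.32 (miR472-3p) to 3.31 (miR396a-3p). Their median with miR161.1 was 0.82. miR396a-3p is the partner strand of miR396, whose guide strand targets growth-regulating factors. It held 388 and 316 RPM in WT against 1114 and 36.3 in ktn1 for ACL5, and 322 and 7.92 in WT against 3.54 and 1.18 in ktn1 for EN7. The replicates of ACL5 ktn1 lay on either side of ACL5 WT, EN7 WT replicate 2 was close to EN7 ktn1, and the interaction had an SE of 2.83. It was 0.72 without EN7 WT replicate 1, 5.90 without EN7 WT replicate 2, 0.86 without ACL5 ktn1 replicate 1 and 5.76 without ACL5 ktn1 replicate 2. Without the pair of libraries it was 3.17 (SE 0.98, adjusted p = 0.11). The guide strand miR396a-5p had an interaction of 1.18 (SE 0.86). miR167c-5p was, with miR827, higher in EN7 alone, with changes of 0.94 in EN7 and 0.57 in ACL5.

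The 10 entries higher in ACL5 alone had interactions from -0.01 (miR158b) to 1.18 (miR396a-5p), with a median of 0.79. miR394a/miR394b-5p, which targets the mRNA of the F-box protein LCR, held 109 and 106 RPM in WT against 181 and 322 in ktn1 for ACL5, and 8.14 and 1.30 in WT against 7.38 and 2.85 in ktn1 for EN7. It was far lower in EN7 than in ACL5 in both genotypes, and its interaction was 0.85 (SE 1.13, 95% interval -1.83 to 3.53). miR395a/miR395d/miR395e, which targets ATP sulfurylase mRNAs, held 153 and 162 RPM in WT against 346 and 232 in ktn1 for ACL5, and 89.6 and 70.2 in WT against 95.2 and 65.2 in ktn1 for EN7. Its change was 0.84 in ACL5 and -0.01 in EN7.

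The 6 entries lower in ACL5 alone were led by level by miR164a/miR164b-5p. It held 3018 and 1616 RPM in WT against 612 and 1582 in ktn1 for ACL5, and 489 and 401 in WT against 488 and 140.2 in ktn1 for EN7. ACL5 ktn1 replicate 2 lay just below the lower WT library, and the interaction was -0.41 (SE 1.11). miR168b-3p, the partner strand of miR168, had a change of -3.40 in ACL5 and -2.66 in EN7, with an average of -3.03 (SE 0.92, limma, adjusted p = 0.0945). Its direction was the same in both layers although EN7 WT replicate 2 and EN7 ktn1 replicate 1 were both at 1.15 RPM.

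Some of the most abundant entries carried the narrowest intervals. miR159a, which targets GAMYB transcription factors, held 70089 and 59011 RPM in WT against 92800.1 and 78497 in ktn1 for ACL5, and 47182 and 93155 in WT against 64163 and 66861 in ktn1 for EN7. It was higher in ktn1 in ACL5 alone by overlap, with an interaction of 0.43 (SE 0.44, 95% interval -0.62 to 1.47) close to the median of the 81 entries. miR159b-3p overlapped in both layers (interaction 0.07, SE 0.50, 95% interval -1.12 to 1.26). miR319a/miR319b, which targets TCP transcription factors, had an interaction of -0.36 (SE 0.90) and miR396b-5p one of -0.01 (SE 0.70, 95% interval -1.67 to 1.64).

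Beside miR827, the 5 entries with the smallest p among those with a negative interaction were miR173-5p, miR390a-5p/miR390b-5p, the miR160 guide strand, miR5651 and miR8182. miR173 and miR390 trigger secondary small RNAs from TAS transcripts, and miR160 targets auxin response factors. Their interactions were -1.07 (SE 1.90), -1.01 (SE 1.78), -0.87 (SE 1.21), -0.65 (SE 1.22) and -0.60 (SE 0.73), with limma adjusted p of 0.97 in each case. Over left-out libraries, the pair included, the sign turned for all of these but miR8182. Values ran from -3.14 to 1.01 for miR173-5p, from -2.67 to 0.47 for miR390a-5p/miR390b-5p, from -1.99 to 0.26 for the miR160 guide and from -1.59 to 0.30 for miR5651. Libraries overlapped in both layers for all of these but miR8182. miR173-5p held 594 and 248 RPM in WT against 51.0 and 923 in ktn1 for ACL5, and 758 and 1823 in WT against 2230 and 881 in ktn1 for EN7, so the ktn1 replicates spanned the WT libraries in ACL5 and were interleaved with them in EN7.

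**Figure D4:**
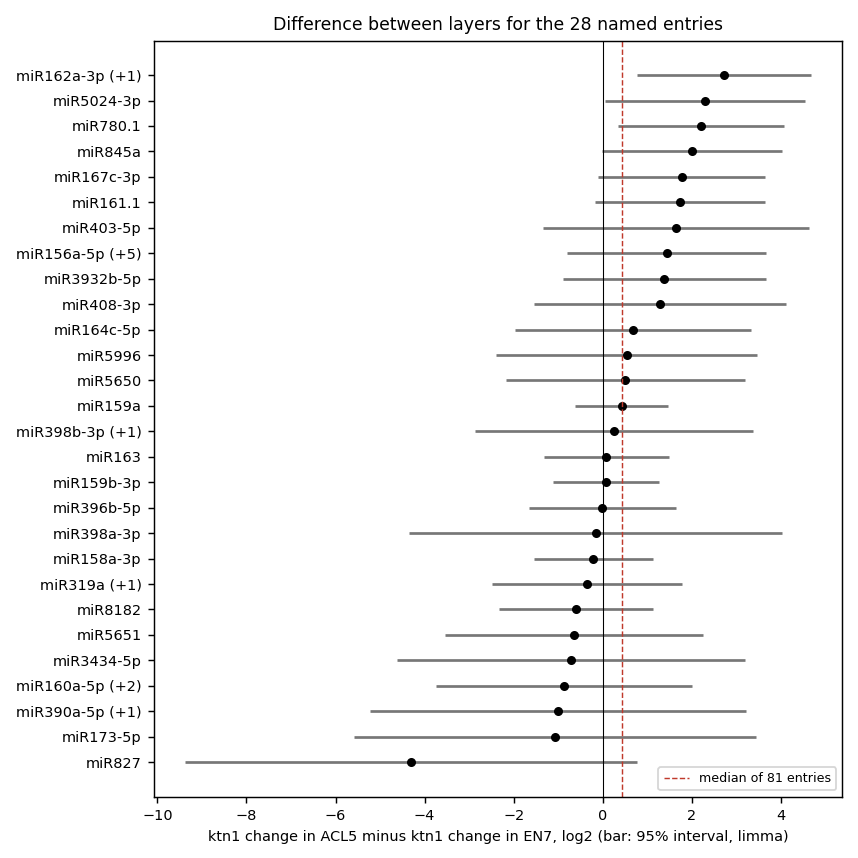
The ktn1 change in ACL5 minus that in EN7 (x axis, log2 scale) for the 28 named entries (y axis), as estimate and 95% interval from limma. The dashed line marks the median of the 81 entries, 0.43, and the interval excludes 0 for miR162a-3p/miR162b-3p before adjustment over all entries. Those of miR780.1 and miR5024-3p also lie above 0 but are no support, since libraries that raise their interactions took them past the filter.

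Families were grouped by the known targets or signals of their guide strands, and partner strands were counted with them. Every list but the auxin and TAS3 one had a median interaction above 0. The guide strands of miR162, miR168 and miR403 target mRNAs of the silencing machinery (DCL1, AGO1 and AGO2). The 7 entries of these families, guides and partners, had a median interaction of 0.93, with 6 of 7 above 0 against 56 of all 81. miR168a-5p/miR168b-5p had one of 1.18 (SE 1.22) and miR403-3p one of 0.93 (SE 1.01). The 16 entries of development regulators had a median of 0.63, the 6 of the phase change group 0.65, the 4 of phosphate and sulfate supply 0.48, and the 4 of defence and jacalin genes 0.25. The 5 entries of families whose guide strands target pentatricopeptide repeat and methyltransferase mRNAs had a median of 0.08. The 7 auxin and TAS3 entries had one of -0.37, and the 28 entries of other families one of 0.45. An interaction passed for 0 entries of any list, and averaged changes passed for 2 copper entries, for miR163 in its group and for 3 entries of other families. The phase change entries had median changes of -0.75 in ACL5 and -1.36 in EN7.

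Across the 81 entries, the ACL5 and EN7 changes correlated at 0.71 by Pearson's r and 0.65 by Spearman's rho, and 54 entries had the same sign in both layers. These are descriptions across miRNAs of the same libraries, which share depth, scale and the miR165 and miR166 share. They turned on single libraries. Without ACL5 ktn1 replicate 2 they were 0.32 and 0.22, with 43 of the same sign, and without ACL5 ktn1 replicate 1 they were 0.85 and 0.80. Without EN7 WT replicate 1 they were 0.56 and 0.47, and without the pair of libraries 0.38 and 0.35, with 49 of the same sign.

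The share of partner strands moved with the same libraries. Summed over the 15 entries of partner strands and the 37 of guide strands, partners held 1.08% and 1.26% of the RPM in WT against 1.83% and 0.752% in ktn1 for ACL5, and 1.35% and 0.576% in WT against 0.477% and 0.505% in ktn1 for EN7. EN7 WT replicate 2 thus lay near the EN7 ktn1 libraries, and replicate 1 near the ACL5 WT libraries. The sums rest largely on a few abundant entries. Of 5664 partner RPM in ACL5 ktn1 replicate 1, miR167c-3p held 2278, miR408-5p 1215 and miR396a-3p 1114. The number of the 15 partner strands under 10 RPM was 0 and 2 in WT against 1 and 6 in ktn1 for ACL5, and 1 and 8 in WT against 8 and 9 in ktn1 for EN7. Between the EN7 WT replicates, partner strands differed by a median of 1.22, with 11 of 15 higher in replicate 1, and between the ACL5 ktn1 replicates by 0.72, again with 11 of 15 higher in replicate 1. The other replicates differed too, by 0.61 for EN7 ktn1 (14 of 15 higher in replicate 1) and by 0.14 for ACL5 WT (9 of 15). Guide strands had medians of -0.26 and -0.44 for EN7 WT and ACL5 ktn1, and of 0.65 and 0.28 for EN7 ktn1 and ACL5 WT, each as replicate 1 minus replicate 2. Partner strands had a median interaction of 0.82, with 12 of 15 above 0. Guide strands had a median of 0.32, with 25 of 37 above 0, and 56 of all 81 entries were above 0. What part the partner share has in these changes was not tested.

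**Figure D5:**
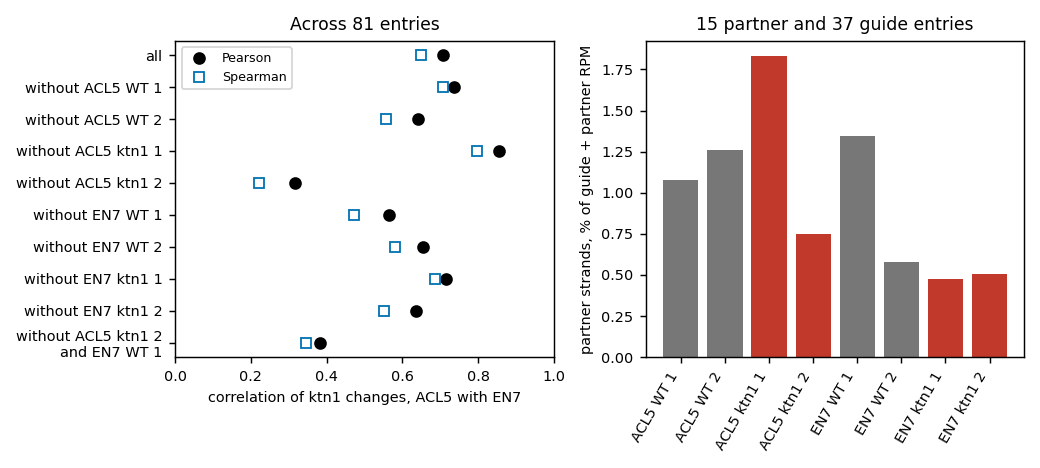
Left, Pearson (circles) and Spearman (squares) correlation across 81 entries between the ktn1 change in ACL5 and in EN7 (x axis), with all libraries and with libraries left out (y axis). Right, partner strands as a percentage of guide plus partner RPM (y axis, bars from 0) in each of the 8 libraries (x axis), grey for WT and red for ktn1. The Pearson value falls from 0.71 to 0.32 without ACL5 ktn1 replicate 2, and the bars range from 0.477% to 1.83%.

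Summed over all entries outside miR165 and miR166, AGO1-bound miRNAs held 226869 ± 28782 RPM in WT against 308179 ± 2921 in ktn1 for ACL5, and 216889 ± 47956 in WT against 219487 ± 43916 in ktn1 for EN7 (SD, n = 2 each). The libraries were separate in ACL5 and overlapped in EN7. The log2 change was 0.45 in ACL5 and 0.02 in EN7, a difference of 0.43 (exact two-sided permutation of genotype within layers, p = 0.333, where the smallest possible p is 0.0556). That difference is close to the median interaction of the 81 entries. The median interaction was 0.90 after rescaling to equal summed miRNA RPM, 0.042 after rescaling to equal sums outside miR165 and miR166 and 0.16 after centring on the median miRNA. Equal sums outside miR165 and miR166 and centring on the median miRNA act to remove a common shift by construction. The permutation test could not give a p under 0.05. Whether ktn1 changes were shifted together toward higher values in ACL5 could therefore not be decided, and the median interaction depended on the scale. Relative to the median of 0.43, the interactions of miR162a-3p/miR162b-3p and miR827 were 2.28 and -4.73.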

How the data were processed

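Small RNA bound to GFP-AGO1 was measured in 8 root libraries, and 12 libraries make up the series. The authors deposited 1 file per library with a normalized value for each mature miRNA name. The deposited values were taken as RPM (reads per 1000000 reads) because of their size and even steps. The submitters' processing notes name cutadapt, Bowtie and the TAIR10 genome. Aligner settings, miRNA annotation and length filters are not given in the sources used here. Entries missing from a file were taken as 0. Read numbers were worked out from the RPM steps for floors and low values only, and a floor covers counting error alone, as PCR copies could not be told from separate molecules.

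Entries that reached 10 RPM in 2 or more of the 8 root libraries were analysed as log2(RPM + 1), which understates the changes of low entries. limma 3.58.1 in R 4.3.3 was fitted to all 86 such entries (lmFit and eBayes, trend on), with a mean for each group and 1 spread for all. Tests of contrasts were two-sided and adjusted over the 86 by the Benjamini-Hochberg method. The 5 miR165 and miR166 entries stayed in the fit and were not described. The fit was tested on simulated data. Summed RPM was compared by an exact permutation test. Python 3.11.15, NumPy 2.4.6, SciPy 1.17.1, pandas 2.3.3 and matplotlib 3.10.9 were used.

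The members, target lists and guide or partner arms were chosen with earlier results of these data known. Entries were named when they passed a test, when they were among the 6 smallest interaction p-values of each sign, the 6 largest averaged changes of each direction without overlap in both layers, or the 8 most abundant, and others as list examples or after their values were seen (miR396a-3p, miR833a-5p, miR168b-3p, the extremes of a group and strands of a shared precursor). All 111 names in the 81 entries matched a gene of the RefSeq table for assembly TAIR10.1, used for locus tags only. Alternatives covered pseudocounts, filters, 3 rescalings, the trend, replicate blocks and left-out libraries. No control immunoprecipitation was analysed here.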

Additional observations from a re-analysis of the deposited data

Results flagged for a closer look

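For 5 entries, every ktn1 library lay above every WT library in ACL5 and below every WT library in EN7. The ktn1 change in ACL5 minus that in EN7 was 2.72 for miR162a-3p/miR162b-3p, 2.29 for miR5024-3p, 2.20 for miR780.1, 2.00 for miR845a and 1.77 for miR167c-3p. The difference was tested as an interaction in limma, and none of the 5 had an adjusted p under 0.05 with all libraries (miR780.1 passed the filter only through ACL5 ktn1, so its test is no support), the lowest being 0.262 for miR162a-3p/miR162b-3p and the highest 0.574 for miR167c-3p. EN7 WT replicate 1 was above replicate 2 for all 5, so the gap to EN7 ktn1 was narrower against replicate 2. Without EN7 WT replicate 1 and ACL5 ktn1 replicate 2, the values were 2.65, 2.24, 1.80, 1.19 and 1.89 in the same order of entries.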

How the results depend on the processing

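The number of entries with an interaction past the threshold was 0 under every alternative run except without EN7 WT replicate 2 (range over single left-out libraries 0 to 1) and without ACL5 ktn1 replicate 2 and EN7 WT replicate 1 together (2). For families the range was 0 to 2, with 4 without that pair. In fits that leave a group with 1 library, that library is assumed to vary like the others. Averaged changes (6) ranged from 1 to 24 over single left-out libraries, with 2 under no filter and 1 without the trend. ACL5 changes (1) ranged from 0 to 6, with 4 under no filter, 3 with equal sums outside miR165 and miR166 and 8 without the pair. EN7 changes (1) ranged from 0 to 14, the highest without EN7 WT replicate 2, with 0 at a pseudocount of 0.5, 0 under no filter, 4 with equal miRNA sums and 3 without the pair.

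Same-numbered libraries correlated in their deviations at -0.46 in ACL5 and 0.43 in EN7, so the numbers were not taken to pair libraries. With the replicate number as a block, the interaction gave 0 calls, averaged changes 6 (4 of them shared, with the miR156 guide and miR398a-3p in place of miR163 and miR8182), ACL5 1 and EN7 3 (miR3932b-5p, miR161.1 and the miR156 guide), and the summed difference was 0.43. A block within layer gave 2 calls in EN7 (miR3932b-5p and miR161.1). Crossing the ACL5 numbers, chosen after seeing the data, gave 11 averaged and 8 EN7 calls. The summed difference kept its sign, from 0.20 to 0.65 over left-out libraries. A count-based test named among the alternatives was not run, because the recovered reads could not be checked. The cause of these moves was not tested.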

Other observations

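Total small RNA of 14-day-old seedlings, which differ from the root libraries in age, tissue and assay, was not tested against them. In it miR3932b-5p held 42.1 and 32.9 RPM in WT and 54.7 and 23.4 in ktn1, so the genotypes overlapped. miR398b-3p/miR398c-3p also overlapped, at 1923 and 1249 RPM in WT and 1537 and 1423 in ktn1, as did miR827, at 14.6 and 11.4 in WT and 12.2 and 12.1 in ktn1. miR408-3p was at 281 and 280.3 RPM in WT and 349 and 308 in ktn1, and miR162a-3p/miR162b-3p at 617 and 607 in WT and 849 and 694 in ktn1, so for both the ktn1 libraries lay above WT. miR163 held 198 and 198 RPM in WT and 188 and 147 in ktn1, with both ktn1 libraries below WT.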
